A study of Mus musculus with 45 samples.

Results

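The wave-front of RNA polymerase II (RNAPII) was compared between slow/slow and WT/WT mouse embryonic stem cells (ESCs) 15 min after removal of the transcription inhibitor DRB. The members were all transcripts that span at least 20 kb and had a wave-front boundary in each of 6 samples, 3 per genotype. This left 26232 of the 122968 transcripts in the deposited tables, from 8765 genes. Of the 35031 transcripts of at least 20 kb, 3158 had no boundary in any of the 6 samples and 5641 had one in some of them. The slow/slow cells carried the R749H substitution in both alleles of Polr2a, and the WT/WT cells carried none. Both were grown in 2i medium on gelatin, blocked with DRB for 4 h by the sample labels, washed, and given 4-thiouridine (4sU) before harvest, so that newly made RNA could be purified and sequenced (4sU-DRB-seq). The 3 replicates of each genotype are biological replicates. The slow/slow line was made by a further round of gene targeting in the WT/slow line, so genotype and line cannot be told apart.

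Polr2a encodes the largest subunit of RNAPII, which holds most of the active site. DRB inhibits the kinase of P-TEFb, which releases RNAPII from its pause near the promoter, so polymerases collect there during the block and leave together once the drug is washed out. The far edge of the nascent RNA, the wave-front, then marks how far the leading polymerases have travelled from the transcription start site (TSS). A wave can be followed only as far as the transcript extends.

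The residue that differs between the genotypes is encoded in exon 14 of 29 of Polr2a (ENSMUST00000058470), on the reverse strand of chromosome 11 at chr11:69743356-69743358 (GRCm38.p6, RefSeq). The 63 reference bases of chr11:69743326-69743388 are given because they hold the codon replaced in slow/slow cells, with the arginine codon 749 in capitals.
Polr2a codon 749: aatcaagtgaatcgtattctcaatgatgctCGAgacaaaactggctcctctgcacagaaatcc
Polr2a itself was not a member. It spans 24.6 kb and had a boundary in 4 of the 6 samples, at 13 and 2.5 kb in WT/WT replicates 1 and 2 and at 2.5 kb in slow/slow replicates 1 and 3. Its transcript ENSMUST00000071213, of 23.8 kb, had boundaries in the same samples, at 11.9 and 10.9 kb in WT/WT and at 2.5 and 4 kb in slow/slow cells.

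Each value is a distance in bases from the TSS, in steps of 100, and the members' boundaries lay between 0.2 and 59.1 kb. No boundary in any of the 27 samples with values exceeded 59.3 kb, although 2783 members span at least 200 kb, so fronts beyond about 60 kb do not appear in these values whatever the length of the transcript. No reads or counts come with the boundaries, so the depth of each sample is unknown and the spread of 3 replicates is the measure of precision. Boundaries of exactly 2.5 kb accounted for 40.9% of all those of the members, while the next most frequent, 2.6 kb, accounted for 0.608%. What a boundary of 2.5 kb stands for is not given in the sources used here, and such boundaries are therefore counted apart. Transcripts of one gene often share a start and a boundary: 5480 genes had more than 1 member transcript, with at most 56. Replicates differed in how well they ranked the members. Across transcripts, Spearman's correlation was 0.621, 0.556 and 0.676 between slow/slow replicates and 0.425, 0.513 and 0.352 between WT/WT replicates, the 2 lower WT/WT values being those with replicate 2. WT/WT replicate 2 also had the most boundaries at 2.5 kb, and values without it are given beside the shares, percentiles and genes that it moved most. A boundary gives no expression level, so the cell type could not be checked from these values. Which markers had boundaries is given as a description only. At least 1 transcript had all 6 boundaries for 6 of 11 ESC markers (Esrrb, Zfp42, Klf4, Tfcp2l1, Tdgf1 and Fgf4), 5 of 7 primitive endoderm markers, 3 of 6 trophoblast markers, 1 of 5 neural progenitor markers and 0 of 5 fibroblast markers, while Pou5f1, Nanog and Sox2 had none.

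Over all members, slow/slow cells had fewer boundaries at 2.5 kb and a higher median wave-front than WT/WT cells, while WT/WT cells had more boundaries far into long transcripts. The median boundary was 3.2, 2.5 and 4.0 kb in the WT/WT replicates and 6.3, 9.2 and 10.2 kb in the slow/slow replicates, a mean of 3.23 ± 0.751 against 8.57 ± 2.03 kb (SD, n = 3) that differed by 5.33 kb (exact two-sided permutation test over samples, p = 0.1). The genotypes did not overlap, and 0.1 is the smallest p that 3 samples against 3 can give. The share of boundaries at 2.5 kb was 45, 55.8 and 40.2% in WT/WT cells and 37.2, 35.4 and 32.1% in slow/slow cells, or 47.0% ± 7.95 against 34.9% ± 2.60 (SD, n = 3; exact permutation p = 0.1). The difference was -12.1 percentage points, and -7.70 percentage points without WT/WT replicate 2. Boundaries below 2.5 kb were rare, with 1.13% ± 0.0641 in WT/WT and 1.02% ± 0.111 in slow/slow cells (SD, n = 3; exact permutation p = 0.3). The gap between the medians depended on the transcripts taken: it was 11.8 kb in transcripts of at least 60 kb, 12.7 kb in those of at least 30 kb, and 3.37 kb for means in place of medians.

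The share at 2.5 kb differed between the genotypes mainly in transcripts of intermediate length. In the 6037 transcripts of 20 to 30 kb it was 64.8% ± 4.60 in WT/WT and 66.4% ± 3.01 in slow/slow cells (SD, n = 3; exact permutation p = 0.7), and the replicates overlapped. In the 8660 transcripts of 30 to 60 kb it was 52.9, 64.2 and 46.6% in the WT/WT replicates and 37.5, 31.1 and 26.3% in the slow/slow replicates. All slow/slow values lay below all WT/WT values there, with a difference of -22.9 percentage points (exact permutation p = 0.1). The differences were -14.0 points in 4884 transcripts of 60 to 100 kb, -11.1 points in 3868 of 100 to 200 kb (exact permutation p = 0.1 for both) and -6.02 points in 2783 of at least 200 kb, where the replicates overlapped (exact permutation p = 0.2). Without WT/WT replicate 2, the differences in the 3 classes from 60 kb were -7.44, -5.76 and -3.46 points.

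**Figure D1:**
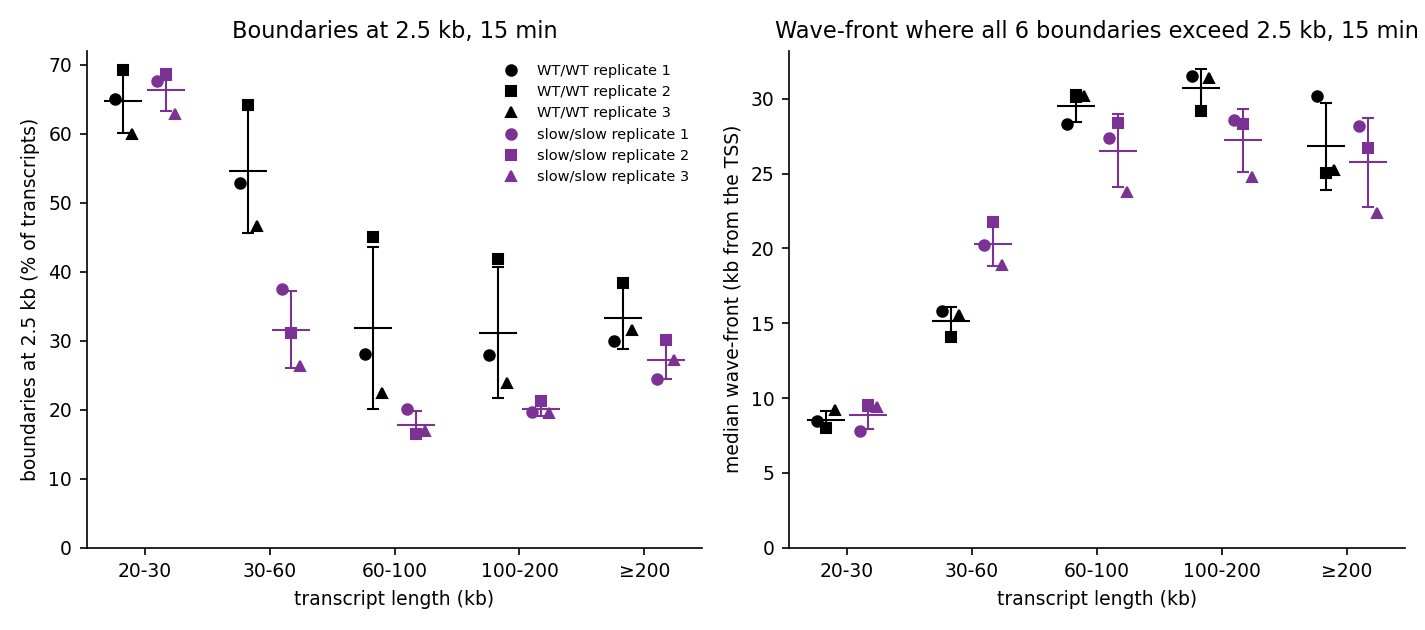
Left, boundaries at 2.5 kb as a percentage of the transcripts in each length class; right, the median wave-front in kb from the TSS in transcripts whose 6 boundaries all exceed 2.5 kb, 15 min after DRB removal. Points are samples (black, WT/WT; purple, slow/slow; circle, square and triangle for replicates 1, 2 and 3), and horizontal bars with whiskers are the mean and SD of 3; the genotypes are apart on both sides at 30 to 60 kb, where slow/slow cells have fewer boundaries at 2.5 kb and higher medians.

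Steps of 5 kb in transcript length, chosen after seeing the data, show where the shares part. In transcripts of 20 to 25 kb the share at 2.5 kb was 65.2% ± 4.66 in WT/WT and 70.2% ± 2.05 in slow/slow cells (SD, n = 3). In slow/slow cells it then went down to 50.6% ± 8.70 at 30 to 35 kb, 37.9% ± 8.51 at 35 to 40 kb and 21.9% ± 5.22 at 45 to 50 kb. In WT/WT cells it was still 62.8% ± 5.19 at 30 to 35 kb and 52.2% ± 10.3 at 45 to 50 kb, and reached 33.4% ± 13.1 at 60 to 65 kb. The gap was widest at 45 to 50 kb, with -30.3 percentage points over 1302 transcripts, and at 95 to 100 kb it was -14.6 points over 467 transcripts, with overlapping replicates. Without WT/WT replicate 2 these were -24.5 and -8.60 points. Boundaries within 5 kb of the transcript's end made up 0.674% ± 0.208 in WT/WT and 2.73% ± 0.760 in slow/slow cells in transcripts of 30 to 60 kb (SD, n = 3; exact permutation p = 0.1).

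**Figure D2:**
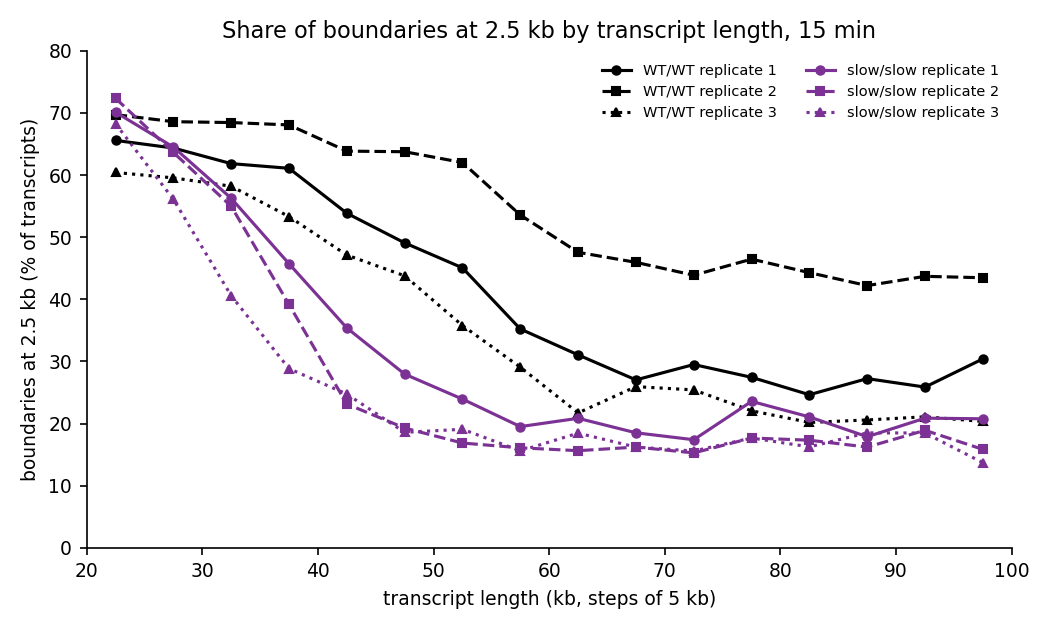
Boundaries at 2.5 kb as a percentage of transcripts, against transcript length in steps of 5 kb, for each of the 6 samples 15 min after DRB removal (black, WT/WT; purple, slow/slow; solid, dashed and dotted lines for replicates 1, 2 and 3). All samples start between 60.4 and 72.3% at 20 to 25 kb, and the slow/slow lines go down at shorter lengths than the WT/WT lines.

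Where all 6 boundaries exceeded 2.5 kb, the difference between sample medians varied with transcript length and with how it was taken. These were 4828 transcripts of 2127 genes, with a median wave-front of 24.0, 22.2 and 25.1 kb in the WT/WT replicates and 25.8, 26.4 and 22.2 kb in the slow/slow replicates. This limit picks transcripts by the values compared, and boundaries at 2.5 kb were more frequent in WT/WT cells. Its p-values, here and below, therefore describe the picked transcripts only. The genotypes overlapped, and the means of 23.7 ± 1.47 and 24.8 ± 2.25 kb differed by 1.05 kb (SD, n = 3; exact permutation p = 0.5), and by 0.258 to 2.34 kb with each replicate left out in turn, while the median of the differences of single transcripts was -2.15 kb. In the 1030 such transcripts of 30 to 60 kb the median was 15.9, 14.1 and 15.6 kb in WT/WT and 20.2, 21.8 and 18.9 kb in slow/slow cells, 5.13 kb higher in slow/slow with no overlap (exact permutation p = 0.1), but the median of the differences of single transcripts was 0.667 kb. In the 1171 transcripts of 100 to 200 kb it was 31.5, 29.2 and 31.4 kb in WT/WT and 28.6, 28.3 and 24.8 kb in slow/slow cells, a difference of -3.47 kb with no overlap (exact permutation p = 0.1). The difference was -3.00 kb at 60 to 100 kb (exact permutation p = 0.2) and -1.08 kb at 200 kb or more (exact permutation p = 0.7), with overlapping replicates in both. Without slow/slow replicate 3, the differences in the 3 classes from 60 kb were -1.63, -2.25 and 0.592 kb, and without WT/WT replicate 1 the last was 0.60 kb. With 1 transcript per gene, the differences at 60 to 100 and 100 to 200 kb were -1.57 and -1.83 kb (exact permutation p = 0.6 and 0.5). Over all 3541 such transcripts of at least 60 kb it was -2.70 kb (29.3 ± 0.929 against 26.6 ± 2.45 kb, SD, n = 3, exact permutation p = 0.1). The medians there were 30.1, 28.3 and 29.6 kb in WT/WT and 28.0, 28.1 and 23.8 kb in slow/slow cells, so slow/slow replicate 3 carried much of the difference. The mean over the 4828 transcripts also lay lower in slow/slow cells, by a difference of -1.97 kb, whereas 1 transcript per gene gave a median 3.40 kb higher (exact permutation p = 0.1 and 0.3). When each sample's own boundaries above 2.5 kb were taken, whatever the other samples showed, the slow/slow median was 9.83 kb higher (exact permutation p = 0.1). In transcripts of at least 60 kb it was then 3.93 kb higher with overlapping replicates (exact permutation p = 0.2), and 1.95 kb higher without WT/WT replicate 2. The direction in long transcripts thus depended on the limit on all 6 boundaries.

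In transcripts of at least 60 kb, slow/slow boundaries collected between 25 and 40 kb and few lay beyond, while WT/WT boundaries were spread to nearly 60 kb. This description, of 11535 transcripts from 3915 genes, was chosen after seeing the data, so its p-values are descriptive only. Boundaries over 25 and up to 40 kb made up 16.5, 10.4 and 20.6% in the WT/WT replicates and 40.1, 42.0 and 32.4% in the slow/slow replicates. Boundaries beyond 40 kb made up 17.3, 13.6 and 17.3% in WT/WT cells and 4.17, 3.92 and 3.97% in slow/slow cells, or 16.1% ± 2.16 against 4.02% ± 0.133 (SD, n = 3; exact permutation p = 0.1). Every slow/slow replicate lay below every WT/WT replicate, by -12.1 percentage points on average, and by -13.3 points without WT/WT replicate 2. The 90th percentile of the boundaries was 45.6, 45.1 and 45.1 kb in WT/WT and 36.1, 36.4 and 33.2 kb in slow/slow cells, a difference of -10.0 kb (exact permutation p = 0.1). At the 75th percentile the difference was 0.133 kb with overlapping replicates (exact permutation p = 1), and at the 95th it was -11.4 kb. Without WT/WT replicate 2, the 75th percentile differed by -3.28 kb with no overlap. Apart from those at 2.5 kb, slow/slow boundaries were most frequent from 30 to 32.5 kb in replicate 1 (9.48%), from 32.5 to 35 kb in replicate 2 (10.2%) and from 27.5 to 30 kb in replicate 3 (8.90%). No such step above 10 kb held more than 3.95% of boundaries in a WT/WT replicate.

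**Figure D3:**
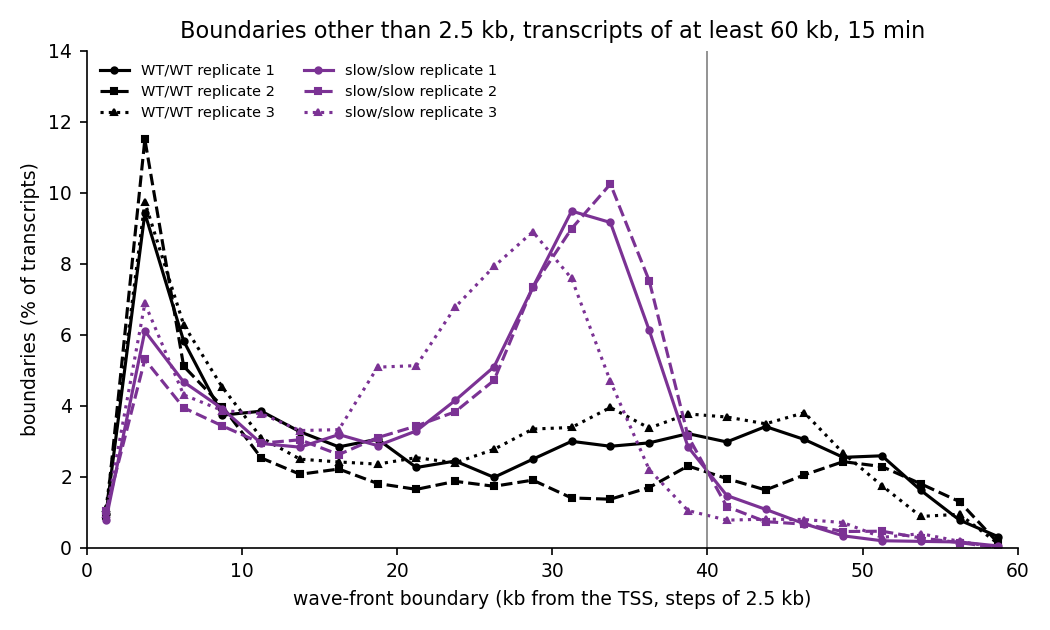
Wave-front boundaries other than 2.5 kb in the 11535 transcripts of at least 60 kb, 15 min after DRB removal, as a percentage of transcripts per step of 2.5 kb from the TSS, for each sample (black, WT/WT; purple, slow/slow; the grey line marks 40 kb). The slow/slow samples peak between 27.5 and 35 kb and hold 3.92 to 4.17% of boundaries beyond 40 kb, against 13.6 to 17.3% in the WT/WT samples.

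Limits of 10 or 20 kb on all 6 boundaries, chosen after seeing the data, pick transcripts by the values compared, so no test is given for them. In 1571 transcripts of at least 60 kb with all 6 boundaries at 10 kb or more, the median was 37.3, 41.1 and 35.1 kb in WT/WT and 29.6, 29.8 and 25.5 kb in slow/slow cells. With all 6 at 20 kb or more, 819 transcripts of 354 genes remained, with medians of 40.2, 45.3 and 38.2 kb against 31.0, 31.8 and 28.1 kb.

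Single transcripts were tested with limma and Benjamini-Hochberg adjustment over all 26232 members, at a threshold of 0.05. The boundary was higher in slow/slow cells in 1680 transcripts (6.40%) of 931 genes and lower in 398 (1.52%) of 270 genes. Of the 1680, 1037 spanned 30 to 60 kb, which was 12.0% of that class, while 81 transcripts of that class (0.935%) were lower. Most of the higher calls rest on the 2.5-kb value. All 3 WT/WT boundaries were at 2.5 kb in 730 of them, and in 157 none was. The called-higher transcripts had medians of 2.5 kb in each WT/WT replicate and of 31.0, 31.9 and 27.7 kb in the slow/slow replicates. A group in which all replicates sit at 2.5 kb has a spread of 0, which lowers the error that limma sets against the difference. Among the 398 lower transcripts, no WT/WT boundary was at 2.5 kb, and in 237 no slow/slow boundary was either. Their medians were 31.1, 31.4 and 29.3 kb in WT/WT and 9.15, 9 and 8.05 kb in slow/slow cells. With 2.5-kb boundaries set to missing, 291 transcripts were higher and 222 lower of 11506 tested. Leaving out each replicate in turn gave 1437 to 2598 higher and 278 to 660 lower transcripts.

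In the 4828 transcripts with all 6 boundaries above 2.5 kb, slow/slow replicates lay below all WT/WT replicates in 937 (19.4%) and above them in 411 (8.51%). Over all members the order was opposite, with 3286 transcripts (12.5%) above and 1750 (6.67%) below. Length divided the 4828: in those of at least 60 kb, 754 (21.3%) lay below and 215 (6.07%) above, and in those of 30 to 60 kb, 145 (14.1%) lay below and 157 (15.2%) above. Over all members of at least 60 kb, 1046 (9.07%) lay below and 1082 (9.38%) above. With limma, 6 of the 4828 (0.124%) were higher and 2 (0.0414%) lower at an adjusted p under 0.05, and 310 and 670 at an unadjusted p under 0.05. These 8 calls depended on the setting: log2 values gave 84 higher and 31 lower, and variance moderation with trend and robust estimation gave 62 and 66. Leaving out any one replicate other than WT/WT replicate 3 gave 0 and 0, and leaving out that one gave 75 and 43. The 2 lower calls were transcripts of Tgfb2, and the 6 higher were transcripts of Cnst, Rbm41, Acer3 and Gm21969 and 2 of Kat6a, each with WT/WT boundaries of at most 8.8 kb. Cnst, Rbm41 and Acer3 were named after their values were seen.

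Among the 8 named genes with the greatest falls in slow/slow cells, Tgfb2, which encodes a secreted ligand of the TGF-beta family, had the smallest SE in the limma fit over all members. Its transcript ENSMUST00000045288 lies on the reverse strand of chromosome 1 (chr1:186622792-186705989, mm10), codes for protein and has 7 exons over 83.2 kb. The WT/WT replicates gave 46.1, 43.1 and 45 kb and the slow/slow replicates 7.4, 7.5 and 7.1 kb, with both means in intron 1. The difference was -37.4 ± 0.871 kb (SE; limma adjusted p = 0.000123), and the WT/slow replicates lay between, at 19.7, 19.8 and 19.9 kb. In the limma fit of transcripts with all 6 boundaries above 2.5 kb, its SE was 3.19 kb and its adjusted p 0.0427. Bcor encodes a transcriptional corepressor of a Polycomb complex. Its boundary was at 55.8, 35.6 and 53.1 kb in WT/WT cells and at 2.5 kb in all 3 slow/slow replicates, a fall by 45.7 kb (limma adjusted p = 0.0154). Pou2f3, a POU-domain transcription factor, had WT/WT boundaries of 46.0, 56.3 and 47.6 kb and slow/slow boundaries of 2.5, 5.5 and 4.9 kb (limma adjusted p = 0.00184). Syne3, which encodes a nesprin of the outer nuclear membrane, stood at 47.0, 39.1 and 46.0 kb against 10.6, 3.3 and 2.5 kb (limma adjusted p = 0.00406). In these genes the slow/slow boundaries were at most 10.6 kb, short of the 25 to 40 kb where slow/slow boundaries of long transcripts other than 2.5 kb were most frequent. Some of them were at 2.5 kb, a value whose meaning is not given. Sptb, which encodes a beta-spectrin, fell by 32.1 kb (limma adjusted p = 0.00599). The secreted protease gene Adamts9, the potassium channel gene Kcnd3 and the ferrireductase gene Steap3 fell by 36.0, 35.7 and 35.5 kb, with limma adjusted p of 0.0188, 0.0499 and 0.0255. The WT/slow replicates also lay between in Syne3, at 22.7, 27 and 30.7 kb, but not in the others. They gave 4.1, 1.9 and 2.5 kb in Bcor, 2.8, 5.6 and 5.7 kb in Pou2f3 and 2.5, 9.1 and 25.3 kb in Sptb. In Adamts9 they gave 46.8, 21.9 and 37.5 kb, in Kcnd3 38.5, 27.8 and 2.5 kb and in Steap3 23, 3.6 and 2.5 kb. In the alternatives without a replicate block, the adjusted p of tests not limited to transcripts with all 6 boundaries above 2.5 kb stayed at or under 0.0336 for Tgfb2 and Pou2f3 (with 2.5-kb boundaries set to missing) and 0.0436 for Syne3, and reached 0.0679 for Bcor, 0.0697 for Sptb, 0.0781 for Adamts9, 0.103 for Steap3 and 0.158 for Kcnd3.

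The greatest rises were mostly from a WT/WT boundary at 2.5 kb. Vps13b encodes a lipid transfer protein of the Golgi, and its transcript ENSMUST00000048646 spans 559.7 kb of chromosome 15. It had 2.5 kb in all 3 WT/WT replicates and 47.9, 48.5 and 47.7 kb in the slow/slow replicates (limma adjusted p = 3.61e-05), while the WT/slow replicates gave 2.5, 47.6 and 47.6 kb. Bmpr1a, a receptor for bone morphogenetic proteins, had 2.5 kb in every WT/WT replicate and 49.1, 47.4 and 35.3 kb in slow/slow cells (limma adjusted p = 0.00615). The corepressor gene Mier1 and the sulfotransferase gene Chst9 likewise had all WT/WT boundaries at 2.5 kb, and rose by 40.6 and 37.8 kb. Tnfrsf21, a receptor of the TNF receptor family, had 2.5, 2.5 and 6.5 kb in WT/WT and 42.7, 49.9 and 46.6 kb in slow/slow cells (limma adjusted p = 0.000948). Gm21969 had no boundary at 2.5 kb, with 8.8, 8.2 and 7.2 kb against 53.2, 46.1 and 42.2 kb (limma adjusted p = 0.00284). Dennd4c and Ccdc50 rose by 38.2 and 38 kb. Of these 8, Ccdc50 and Chst9 passed the threshold in only some of the alternatives without a replicate block, with adjusted p up to 0.138 and 0.0618.

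**Figure D4:**
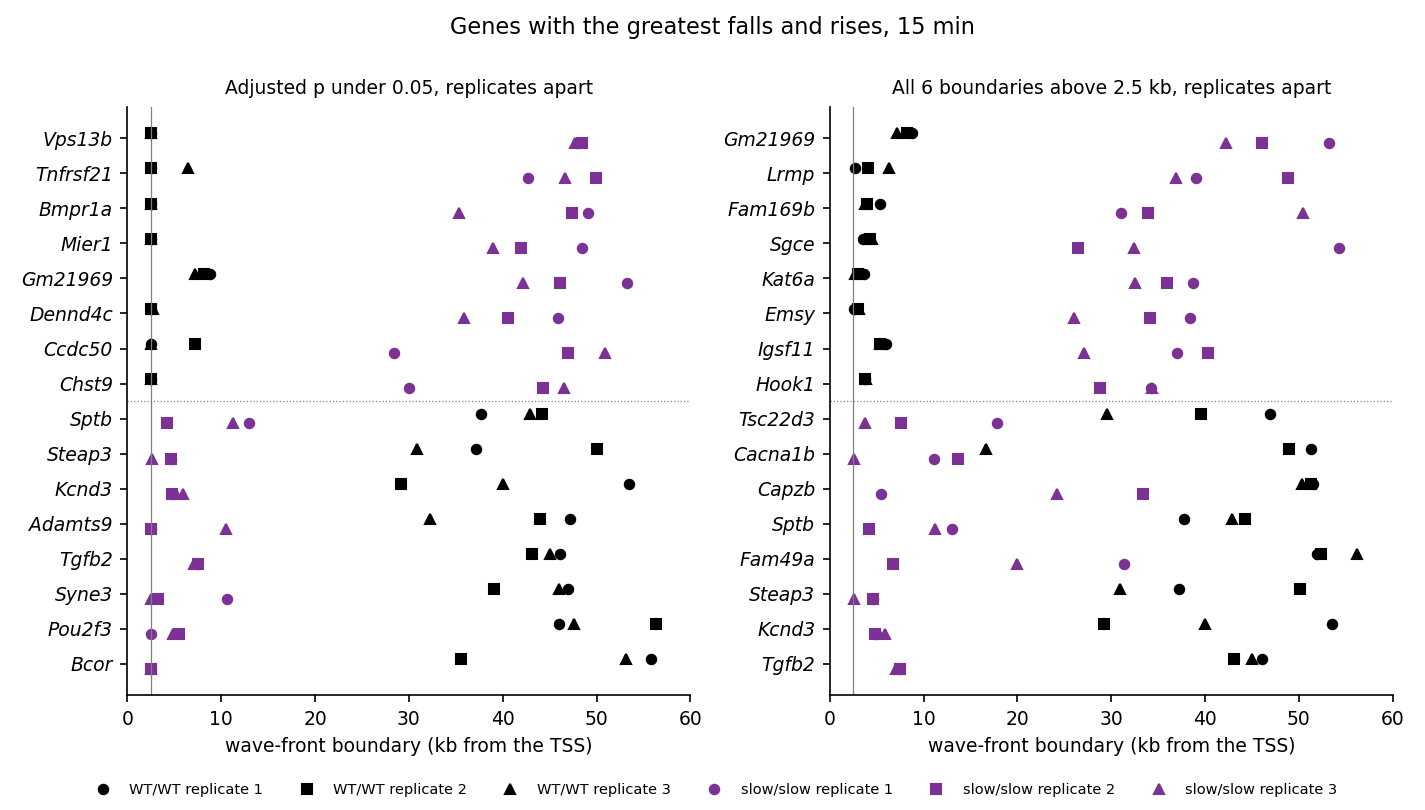
Wave-front boundaries in kb from the TSS in each of the 6 samples, 15 min after DRB removal, for the genes with the greatest falls (below the dotted line) and rises (above it) among those with an adjusted p under 0.05 (left) and those with all 6 boundaries above 2.5 kb (right). Points are samples (black, WT/WT; purple, slow/slow) and the grey line marks 2.5 kb; genes were chosen because their replicates do not overlap, and in the rises all WT/WT points lie within 8.8 kb of the TSS.

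Among genes with all 6 boundaries above 2.5 kb, Tgfb2, Kcnd3, Steap3 and Sptb were again among the 8 with the greatest falls. The other 4 did not pass the limma threshold over all members. Capzb, a subunit of the actin capping protein, had closely spaced WT/WT boundaries of 51.5, 51.3 and 50.3 kb and scattered slow/slow boundaries of 5.5, 33.4 and 24.2 kb (limma adjusted p = 0.132). Fam49a had 51.9, 52.4 and 56.2 kb against 31.4, 6.7 and 20 kb (limma adjusted p = 0.0628). Cacna1b, a neuronal calcium channel subunit, had 51.3, 48.9 and 16.6 kb against 11.1, 13.7 and 2.6 kb (limma adjusted p = 0.321). Tsc22d3, a glucocorticoid-induced leucine zipper protein, had 46.9, 39.6 and 29.5 kb against 17.8, 7.6 and 3.7 kb (limma adjusted p = 0.0757). On the other side stood Kat6a, a histone acetyltransferase, with 3.6, 3.0 and 2.7 kb in WT/WT and 38.7, 35.9 and 32.5 kb in slow/slow cells (limma adjusted p = 0.000839). Hook1, an adaptor that links cargo to microtubule motors, had 3.8, 3.7 and 3.9 kb against 34.2, 28.8 and 34.3 kb (limma adjusted p = 0.00125). Emsy, a chromatin-associated repressor, Igsf11, an adhesion molecule, Lrmp and Fam169b rose by 29.9, 29.2, 37.2 and 34.1 kb. Igsf11 and Fam169b lost their calls in some alternatives without a replicate block, with adjusted p up to 0.0615 and 0.111. In the limma fit of the 4828 transcripts alone, Kat6a and Gm21969 passed (adjusted p = 0.0427), and Hook1 and Lrmp (0.0522), Emsy and Igsf11 (0.0541) and Fam169b (0.0548) did not. Among the falls of this set, Sptb (0.0522), Steap3 (0.0541) and Kcnd3 (0.0548) did not pass in that fit. Sgce, an imprinted sarcoglycan gene, differed by 33.6 kb with slow/slow boundaries of 54.3, 26.5 and 32.4 kb (limma adjusted p = 0.103). In all 8 of these genes with higher slow/slow boundaries the WT/WT boundaries lay within 8.8 kb of the TSS.

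The genes that the study followed for elongation show how a single 2.5-kb boundary sets a mean. In Ern1, which encodes a sensor of unfolded proteins, the WT/WT replicates gave 59.1, 2.5 and 34.6 kb and the slow/slow replicates 31.7, 31.0 and 28.2 kb. Itpr1, a calcium channel of the endoplasmic reticulum, gave 49.2, 2.5 and 36.9 kb against 29.8, 32.4 and 26.2 kb. In Notch1, a receptor of cell-to-cell signalling, the values were 35.5, 2.5 and 32.7 kb against 29.6, 31.1 and 25.6 kb, and the WT/slow replicates gave 30.3, 30.2 and 30.1 kb. In all 3 genes, WT/WT replicate 2 stood at 2.5 kb and the other WT/WT replicates lay above every slow/slow replicate. The differences over all replicates were -1.77, -0.0667 and 5.20 kb, with limma adjusted p of 1, 1 and 0.892. Without WT/WT replicate 2, Ern1, Itpr1 and Notch1 differed by -16.6, -13.6 and -5.33 kb (limma adjusted p = 0.557, 0.302 and 0.403). Utrn, which encodes utrophin, had 2.5, 2.5 and 6.3 kb in WT/WT cells and 25.9, 17.9 and 18.5 kb in slow/slow cells, and rose by 17 kb (limma adjusted p = 0.0307, with up to 0.104 in the alternatives without a replicate block). At 5 min its boundaries were 6.3, 8.7 and 4.4 kb in WT/WT and 4.7, 2.5 and 2.5 kb in slow/slow cells. The WT/WT boundary was thus farther at 15 than at 5 min in replicate 3 only.

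Gene lists were read at 1 transcript per gene, the longest, of which 601 of 8765 (6.86%) were higher and 133 (1.52%) lower in slow/slow cells, with a median difference of 0.80 kb over the 8759 that have a symbol and of -1.20 kb over the 1574 of these with all 6 boundaries above 2.5 kb. In the 1576 genes with all 6 boundaries above 2.5 kb, 270 (17.1%) lay below every WT/WT replicate and 150 (9.52%) above. The list of ubiquitin ligases and deubiquitinases, enzymes that attach or remove ubiquitin, had 18 of 115 members higher and 4 lower, with a median difference of 9.73 kb. Over its 25 members with all 6 boundaries above 2.5 kb the median was -2.83 kb, with 6 below every WT/WT replicate and 1 above. Its examples were the deubiquitinase genes Usp3, with 2.5, 2.5 and 3.4 kb against 36.2, 34.8 and 34.1 kb (limma adjusted p = 0.000112), and Otud7b, with 2.5 kb in all WT/WT replicates against 34.8, 34.2 and 32.4 kb (limma adjusted p = 0.000123). The list of the pluripotency network with LIF, FGF and Wnt signalling had 5 of 35 members higher, 0 lower and a median of 8 kb. Smad1, an effector of BMP receptors, had 2.5 kb in every WT/WT replicate and 29.8, 31.5 and 28.2 kb in slow/slow cells (limma adjusted p = 0.000255). In this list the 2.5-kb value made up 40% of WT/WT and 11.4% of slow/slow boundaries, against 47.8 and 34.7% over all genes.

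Lists of nuclear machinery had 11.7 to 13% of their members higher, near the 12.0% of all transcripts of 30 to 60 kb, the class that holds the median span of all but the chromatin list. The latter, with a median span of 80.2 kb, stands beside 6.31% higher of all transcripts of 60 to 100 kb. The class shares, here and below, count every member transcript, whereas the lists count 1 per gene. List members also fall in other length classes, so these comparisons are rough. Among chromatin regulators 11 of 94 were higher and 2 lower (Ino80 and Mbd5), with a median of 6.35 kb, and of -0.283 kb over the 18 with all 6 boundaries above 2.5 kb. The same median was 5.65 kb over 6 elongation factors, 5.33 kb over 2 splicing factors, 1.63 kb over 12 DNA repair genes and 0.867 kb over 9 genes of the pluripotency list, and -1.65 kb over 44 synaptic genes. Of these genes, 6 chromatin regulators lay below every WT/WT replicate and 2 above. The counts below and above were 1 and 1 for elongation factors, 0 and 0 for splicing factors and 3 and 0 for DNA repair genes. They were 1 and 0 for the pluripotency list and 8 and 6 for synaptic genes. The histone demethylase genes Kdm3a, with 24.1, 24.5 and 25.1 kb, and Kdm6a, with 35.2, 37.8 and 35.9 kb in slow/slow cells, had WT/WT boundaries of at most 2.6 kb (limma adjusted p = 6.74e-05 and 0.000121). Of RNAPII elongation factors and kinases 7 of 54 were higher and 1 lower (Rpap2), with a median of 5.12 kb. Ints2, a subunit of Integrator, had 2.5 kb in each WT/WT replicate and 23.5, 25.7 and 24.3 kb in slow/slow cells, and Med13, of the Mediator kinase module, had 2.6, 2.5 and 2.5 kb against 33.7, 35.4 and 28.3 kb (limma adjusted p = 0.000199 and 0.00176). Of DNA repair and replication genes 11 of 85 were higher and 0 lower, with a median of 6.27 kb. They included the cohesin regulator gene Pds5a and Rpa1, which binds single-stranded DNA, with rises of 31.5 and 29.6 kb. Of splicing and RNA processing factors 9 of 77 were higher and 0 lower, with a median of 2.33 kb, among them the spliceosomal helicase gene Dhx8 and Rbm27, with rises of 27.8 and 32.5 kb. This list had the highest WT/WT share at 2.5 kb, 71.9% against 47.2% in slow/slow cells, and its members were short, with a median span of 40.6 kb.

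The list of synaptic and axon guidance genes, with a median span of 443.8 kb, had the smallest share of higher calls, 1.49%, beside 2.66% higher and 1.72% lower of all transcripts of at least 200 kb. Of its 134 members 2 were higher, Sema4d and Syn1, and 0 lower, with a median difference of -0.0167 kb, and the 2.5-kb share was 28.1% in WT/WT and 30.1% in slow/slow cells. Syn1, a synaptic vesicle protein, had no boundary at 2.5 kb, with 12.4, 8.4 and 11 kb against 22.9, 20.4 and 20.4 kb (limma adjusted p = 0.0150, with 0.0529 and 0.0525 without slow/slow replicates 2 and 3, 0.0749 with 2.5-kb boundaries set to missing and 0.140 in the fit of transcripts with all 6 boundaries above 2.5 kb). Sema4d, a semaphorin, had 2.5 kb in all WT/WT replicates and 28.7, 30.5 and 27.0 kb in slow/slow cells (limma adjusted p = 0.000310). The receptor gene Notch2 had 46.5, 44.7 and 46.2 kb in WT/WT and 35.2, 28.7 and 39.1 kb in slow/slow cells, a difference of -11.5 ± 2.91 kb (SE) without overlap that did not pass the threshold (limma adjusted p = 0.127). Of imprinted genes 1 of 36 was higher, the ubiquitin ligase gene Ube3a, with a rise of 31.9 kb. The imprinted long non-coding RNA Rian had 2.5 kb in each WT/WT replicate and 4.1, 3.6 and 4.3 kb in slow/slow cells (limma adjusted p = 0.0816).

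Kinesins, dyneins and cytoskeletal regulators had calls in both directions, 6 higher (6.12%) and 5 lower (5.10%) of 98. Over all genes, 6.86% were higher and 1.52% lower. With a median span of 105.5 kb, the list stands beside 3.90% higher and 2.43% lower of all transcripts of 100 to 200 kb. Its median difference was 5.92 kb over all members and -4.67 kb over the 26 with all 6 boundaries above 2.5 kb. Dync1i2, a dynein intermediate chain, had 3.0, 2.5 and 2.5 kb against 33.7, 35.4 and 31.3 kb (limma adjusted p = 0.000310). Arhgap10 lies on the reverse strand of chromosome 8 (chr8:77250366-77517953, mm10) and spans 267.6 kb with 23 exons. Its WT/WT boundaries were 50.2, 50.6 and 48.8 kb and its slow/slow boundaries 29.5, 27.2 and 26.9 kb, with both means in intron 1. It fell by 22 ± 0.962 kb (SE; limma adjusted p = 0.000481), with an adjusted p of 0.0541 in the fit of transcripts with all 6 boundaries above 2.5 kb. Arhgap10 and Notch2 are therefore genes in which every replicate had a front far inside the transcript and the WT/WT fronts were the farther ones. The other lower members of the list were Flna, Myh10, Myo18a and Myo1e.

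**Figure D5:**
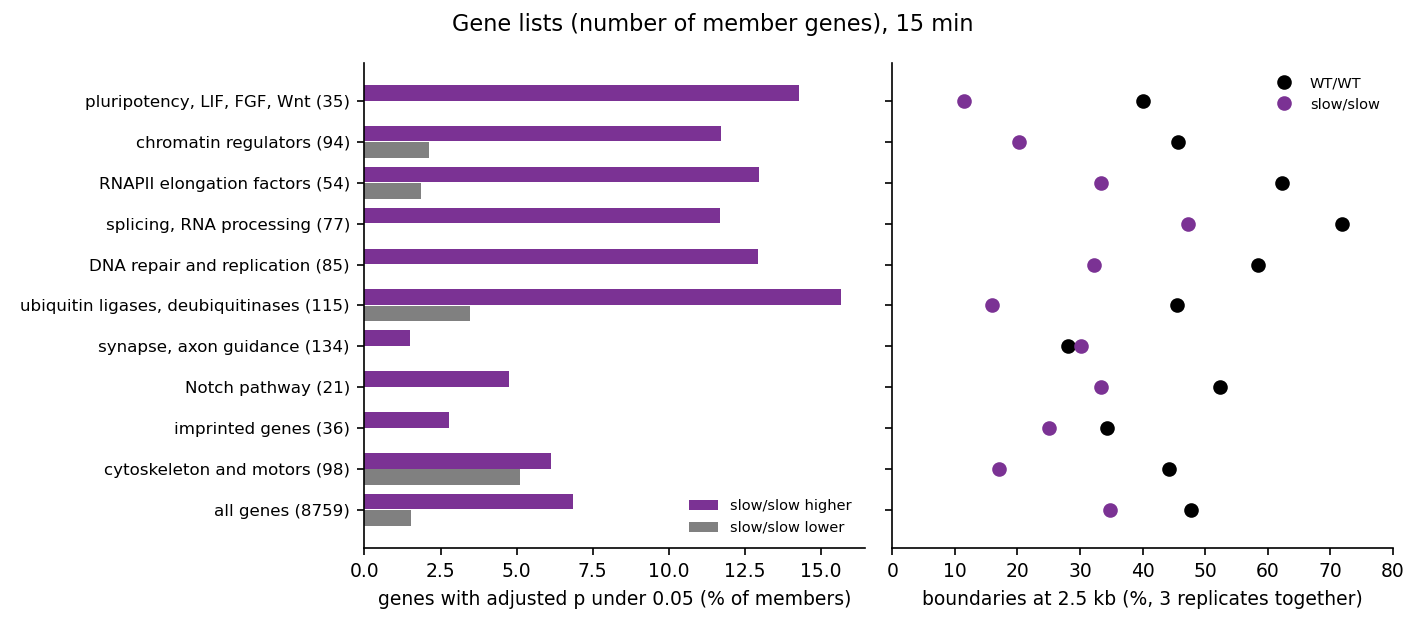
Left, genes of each list with an adjusted p under 0.05 as a percentage of its member genes, higher (purple) or lower (grey) in slow/slow cells; right, boundaries at 2.5 kb as a percentage of the boundaries of the member genes in WT/WT (black) and slow/slow (purple) cells, 3 replicates together. Numbers in brackets are member genes at 1 transcript per gene; the synaptic list is the one with the higher share at 2.5 kb in slow/slow cells (30.1 against 28.1%).

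Exon number, first intron length and GC content of the span were compared in 3 classes of equal size over genes of at least 60 kb whose coordinates match the annotation. The share of boundaries beyond 40 kb was lower in slow/slow cells in each class of each feature, with no overlap of replicates. The difference was -8.66 percentage points in 1143 genes with few exons (median 6) and -13.2 points in 1144 genes with many (median 27). It was -12.7 points in genes with a short first intron and -9.03 points in those with a long one, and -11.3 and -11.4 points at low and high GC content. The share at 2.5 kb differed by -16.2 points at low GC content (median 39.2%) and by -8.68 points at high GC content (median 47.0%), and without WT/WT replicate 2 by -10.4 and -3.22 points. It differed by -7.03 points with few exons and -16.6 points with many, and without that replicate by -3.76 and -8.62 points. With a short, middle and long first intron it differed by -11.8, -18.5 and -7.23 points, and without that replicate by -6.40, -11.2 and -3.09 points. With a long first intron the replicates overlapped (exact permutation p = 0.3), also without WT/WT replicate 2. The classes also differ in length, with median spans of 128.9 and 102.7 kb at low and high GC content. Median spans were 101.7 and 164.3 kb with a short and a long first intron. Differences between classes were not tested.

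The 15-min values sit beside other samples of the series over the same members. In WT/slow cells at 15 min, the share at 2.5 kb was 42.5% ± 2.44, and in transcripts of at least 60 kb 15.5% ± 4.85 of boundaries lay beyond 40 kb and 20.4% ± 1.99 from 25 to 40 kb (SD, n = 3). At 5 min, 20.8% ± 2.81 of boundaries were at 2.5 kb in WT/WT and 20.6% ± 1.96 in slow/slow cells, with median boundaries of 10.5 ± 3.89 and 8.90 ± 1.28 kb (SD, n = 3). At 30 min, the share at 2.5 kb was 66.3% ± 8.76 in WT/WT and 67.9% ± 2.76 in slow/slow cells, and the median was 2.5 kb in every sample of these genotypes. The sets called at 15 min were chosen by their 15-min values. The transcripts called higher had 5-min medians of 8.9, 18.9 and 10.9 kb in WT/WT and 12.1, 11 and 9.3 kb in slow/slow cells. Those called lower had 9.3, 14.5 and 10 kb against 9.1, 7.5 and 6.4 kb.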

How the data were processed

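The deposited values are wave-front boundaries, distances in bases from the TSS to the end of the transcription wave, 1 or none per Ensembl transcript and sample. Per the submitters' processing notes, the authors used Bowtie2 2.2.9 and the mouse assembly mm10 (GRCm38) for alignment, kept unique reads outside rRNA, and called the end of the wave with published software, each sample against the average of the 0-min samples, as the table names say. The software version and annotation are not given in the sources used here. Counts were not used here, so depth is unknown. No tables held identical values.

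Identifiers were matched to GENCODE M21 (26130 of 26232 members, 24588 with the same start and end). Sample medians and shares were compared with an exact two-sided permutation test over samples. Boundaries in kb were tested per transcript with limma 3.58.1 (R 4.3.3), lmFit and eBayes with Benjamini-Hochberg adjustment over all members. The fit was also run on simulated boundaries with normal noise around each transcript's mean. These did not reproduce a share at 2.5 kb that differs between the genotypes, so they do not test calls that rest on that value. Other steps used Python 3.11.15, NumPy 2.4.6, pandas 2.3.3 and Matplotlib 3.10.9. Named genes, each by its longest member transcript, are those the study names for elongation; the 8 greatest falls and rises with adjusted p under 0.05, and with all 6 boundaries above 2.5 kb, in both cases without overlap of replicates; and the 2 genes of smallest p in each list, not all of which are printed. Members and lists were chosen with earlier results of these data known. Alternatives were each replicate left out, a replicate block, 1 transcript per gene, other length minimums, means, log2 values, other variance moderation, and other treatments of missing and 2.5-kb boundaries.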

Additional observations from a re-analysis of the deposited data

How the results depend on the processing

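Leaving out each replicate in turn moved the difference in the median boundary between 4.52 and 6.47 kb, in the share at 2.5 kb between -15.5 and -7.70 percentage points, and in the median with all 6 boundaries above 2.5 kb between 0.258 and 2.34 kb. It moved the share beyond 40 kb in transcripts of at least 60 kb between -13.3 and -11.4 points and the 90th percentile between -10.6 and -9.00 kb. By length class, the share at 2.5 kb ranged from -0.759 to 3.84 points at 20 to 30 kb, reversed at -0.759 without WT/WT replicate 3, from -26.9 to -18.1 at 30 to 60 kb, from -18.7 to -7.44 at 60 to 100 kb, from -14.8 to -5.76 at 100 to 200 kb and from -7.70 to -3.46 at 200 kb or more. The median above 2.5 kb ranged from 0.0333 to 0.883, 4.38 to 5.83, -3.93 to -1.63, -4.22 to -2.25 and -2.28 to 0.60 kb in the same classes, and in the last it reversed to 0.60 kb without WT/WT replicate 1 and 0.592 kb without slow/slow replicate 3. Counts over all boundaries ranged from 1437 to 2598 higher and 278 to 660 lower, and with all 6 boundaries above 2.5 kb from 0 to 75 higher and 0 to 43 lower (limma). The 0 counts came with 249 to 383 higher and 487 to 745 lower at an unadjusted p under 0.05.

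The median boundary differed by 11.8 kb in transcripts of at least 60 kb, 12.7 kb in those of at least 30 kb and 3.37 kb as a mean. With all 6 boundaries above 2.5 kb, the difference was 3.40 kb with 1 transcript per gene and 9.83 kb for each sample's own boundaries. It reversed to -1.97 kb as a mean and -2.70 kb at 60 kb or more. At that length, limits of 10 or 20 kb on all 6, chosen after seeing the data, gave -9.53 and -10.9 kb. At 20 to 30 kb it was -0.0667 kb with 1 transcript per gene. Also chosen after seeing the data, the share beyond 35 and 45 kb differed by -10.2 and -8.35 points, and that beyond 40 kb with all 6 boundaries above 2.5 kb by -23.3 points. The 75th and 95th percentiles differed by 0.133 and -11.4 kb, and the 90th with all 6 boundaries above 2.5 kb by -13.2 kb. The cause of these moves was not tested, except that settings with fewer transcripts test fewer of them.

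With limma, calls over all boundaries were 606 higher and 138 lower with 1 transcript per gene, 506 and 188 at 60 kb or more, and 291 and 222 with 2.5-kb boundaries set to missing. With all 6 boundaries above 2.5 kb they were 84 and 31 on the log2 scale, 62 and 66 with trend and robust moderation, 42 and 31 with 1 transcript per gene, and 0 and 0 at 60 kb or more, where 167 and 531 had an unadjusted p under 0.05.

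Replicate numbers are shared between the genotypes, but no source says that they mark shared processing. Over the members, deviations from the group means correlated at 0.0892, 0.0549 and 0.0174 between samples of the same number, and every sample but slow/slow replicate 3 correlated best with its own number, a hint from the data only. Slow/slow replicate 3 correlated best with WT/WT replicate 2 (0.0314). With all 6 boundaries above 2.5 kb, the same-number correlations were 0.100, 0.117 and 0.0268, and 0.114, 0.135 and 0.0349 at 60 kb or more, and every sample correlated best with its own number in both sets. With the replicate block, 859 transcripts were higher and 138 lower over all boundaries, and 0 and 0 with all 6 above 2.5 kb (270 and 638 at an unadjusted p under 0.05). With the block, the adjusted p was 0.181 for Utrn and Kcnd3, 0.106 for Bcor and Sptb, 0.186 for Adamts9, 0.115 for Steap3, 0.146 for Ccdc50, 0.105 for Chst9, 0.167 for Fam169b, 0.103 for Igsf11 and 0.0373 for Tsc22d3. The block alone put the adjusted p of Bmpr1a (0.0710), Lrmp (0.0760) and Emsy (0.0931) above the threshold, with the same differences. The sample-level differences are the same with the block, and the smallest p of its exact sign-flip test is 0.25.

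Among the named genes, Ern1 reversed to 0.81 on the log2 scale and 11.8 kb without WT/WT replicate 1, and moved to -16.6 kb without WT/WT replicate 2. Notch1 reversed to -5.33 kb without WT/WT replicate 2 or with 2.5-kb boundaries set to missing, and moved to 11.2 kb without WT/WT replicate 1. Itpr1 moved to -13.6 kb without WT/WT replicate 2 and reversed to 0.83 on the log2 scale and to 9.77, 3.62 and 1.57 kb without WT/WT replicates 1 and 3 and slow/slow replicate 3. Under the alternatives, 599 gene values kept direction and side of the threshold, 56 lost their call, 9 gained one and 8 reversed.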
